A study of Mus musculus with 9 samples.

Results

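The collagen gene family was examined in primary mouse glia, using every probe of an Illumina mouse expression array whose platform gene symbol has the form Col, number, a, number. This rule gave 55 probes for 37 genes, out of 24613 probes and 15967 named genes on the array, and it used no measured value. They were divided into fibrillar collagens (15 probes, 10 genes), basement membrane collagens (11 probes, 8 genes) and all other collagens (29 probes, 19 genes). The 9 cultures fell into 3 groups of 3 biological replicates: SOD1-G93A glia (line B6SJL-Tg(SOD1*G93A)2Gur/J), which carry mutant human superoxide dismutase 1, SOD1-WT glia (line B6SJL-Tg(SOD1)2Gur/J), which carry the normal human enzyme, and nontransgenic glia (labelled B6SJL 2Gur/J). The mutant transgene models amyotrophic lateral sclerosis, and the series set out to find genes behind the harm that such glia do, per its title. All cultures were started from pups of postnatal days 1 to 3 after the meninges had been stripped off, and were grown to confluence in medium with 10% horse serum. The promoter of the transgenes, the region of the nervous system, the sex of the pups and whether replicates came from separate litters are not given in the sources used here, so p-values measure the spread between these cultures. The human transgenes were not analysed here.

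Collagens are secreted or membrane-bound proteins built from 3 chains wound into a triple helix. Fibrillar collagens, chiefly types I, III and V, form the tensile fibres of connective tissue. In the brain they are made mostly by fibroblasts of the meninges and of vessel walls. Type IV collagen forms the sheet of every basement membrane, to which types XV and XVIII are attached, and astrocyte end-feet rest on such a membrane at vessels and at the brain surface. The remaining types make beaded filaments, hexagonal networks and anchoring fibrils, decorate other fibrils, or span the cell membrane.

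The promoters of 3 members are shown because their genes passed in at least 1 comparison of the groups and because 2 of them are neighbours. For Col4a1 this was only SOD1-G93A against SOD1-WT glia. RefSeq promoter windows (build GRCm38.p6, 250 bases before to 50 after the annotated start) were found for 30 of the 37 collagen genes and are printed 5′ to 3′ on the strand of the gene. The capitals mark CCAAT, the core of a common promoter element, on either strand (ATTGG is its reverse complement). The Col1a2 window lies at chr6:4505368-4505667 on the plus strand, the Col4a1 window at chr8:11312777-11313076 on the minus strand and the Col4a2 window at chr8:11312555-11312854 on the plus strand.
Col1a2: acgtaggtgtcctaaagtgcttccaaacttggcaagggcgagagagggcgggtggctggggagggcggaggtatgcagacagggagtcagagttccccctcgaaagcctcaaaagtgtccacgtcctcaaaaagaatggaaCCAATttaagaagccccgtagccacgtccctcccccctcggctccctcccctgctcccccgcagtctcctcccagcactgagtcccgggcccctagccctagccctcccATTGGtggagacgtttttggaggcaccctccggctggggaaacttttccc
Col4a1: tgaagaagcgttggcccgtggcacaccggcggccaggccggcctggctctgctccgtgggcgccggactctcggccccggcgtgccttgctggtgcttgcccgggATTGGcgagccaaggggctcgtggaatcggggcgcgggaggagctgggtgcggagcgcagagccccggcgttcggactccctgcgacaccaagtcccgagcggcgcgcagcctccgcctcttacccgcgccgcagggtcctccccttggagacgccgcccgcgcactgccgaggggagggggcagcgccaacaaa
Col4a2: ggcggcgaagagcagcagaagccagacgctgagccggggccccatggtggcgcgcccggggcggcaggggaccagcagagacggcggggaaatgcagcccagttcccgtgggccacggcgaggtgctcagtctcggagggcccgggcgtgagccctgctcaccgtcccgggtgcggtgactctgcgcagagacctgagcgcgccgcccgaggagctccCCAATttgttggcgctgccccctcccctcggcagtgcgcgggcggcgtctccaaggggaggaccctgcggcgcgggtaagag
Col1a2 held 2 CCAAT matches, and Col4a1 and Col4a2 held 1 each. Col4a1 and Col4a2 are adjacent genes read in opposite directions: their annotated starts are 21 bases apart, and the 2 windows share 78 bases with no CCAAT match among them. Over the 32 windows of collagen genes, 40.6% held CCAAT, against 37.4% of all 32851 windows. GGGCGG, the core of a GC box, stood on either strand of 62.5% of collagen windows and 35.7% of all windows. TATAAA, the letters of the TATA box, stood on either strand of 15.6% of collagen windows and 13.6% of all windows. The 32 windows cover 30 genes, and the GGGCGG match of Col4a1 lies in the bases shared with Col4a2 and is counted in both windows. Windows are therefore not independent, and no test was made of these shares. A match is a run of letters and not a shown binding site.

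Arrays were of like quality except for SOD1-WT replicate 3. Between 13107 and 13618 probes were detected per array. Raw signal averaged 279.6 units per probe on that array, against 211.3 to 235.7 on each of the other 8. The standard error between beads of a probe had a median of 6.84% of the signal there, against 5.08% to 5.23% elsewhere. Of 10 kept astrocyte markers, 9 were detected on all 9 arrays. Among these the glutamate transporter Slc1a3 averaged 12.34 ± 0.10, 12.50 ± 0.05 and 12.06 ± 0.12 log2 units in SOD1-G93A, SOD1-WT and nontransgenic glia (SD, n = 3 each), and the intermediate filament gene Gfap 9.47 ± 0.22, 9.69 ± 0.32 and 8.71 ± 0.07. The other glutamate transporter on the list, Slc1a2, was detected on 0 of 3 SOD1-G93A, 2 of 3 SOD1-WT and 3 of 3 nontransgenic arrays, with means of 4.44, 4.59 and 4.81. Levels below are log2 normalised intensities, and levels of different probes cannot be set against each other. Differences are log2 differences with their standard errors, and adjusted p-values are from limma with Benjamini-Hochberg adjustment over 13972 kept probes. A probe was kept when its detection p-value was below 0.01 on at least 3 of the 9 arrays, and a difference passed the test at an adjusted p below 0.05.

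Of the 55 collagen probes, 28 were kept, for 24 genes: 6 fibrillar, 8 basement membrane and 14 other probes. A probe can be kept through the group in which it is high, so counts over kept probes describe those probes and not the family. SOD1-WT glia stood furthest from the other groups. In SOD1-WT against nontransgenic glia, 5 kept collagen probes were higher and 9 lower, and 14 did not pass. That is 50% of them, beside 25.3% of all kept probes (13.5% higher, 11.8% lower). Against SOD1-WT glia, SOD1-G93A glia had 11 collagen probes higher and 1 lower, and 16 did not pass (42.9%, beside 15% of all kept probes, 6.91% higher and 8.13% lower). Against nontransgenic glia, SOD1-G93A glia had 5 higher and 5 lower, and 18 did not pass (35.7%, beside 10.6% of all kept probes, 5.11% higher and 5.53% lower). These comparisons share arrays, so their counts are not independent. The median difference over kept collagen probes was 0.12 for SOD1-G93A against nontransgenic, 0.17 for SOD1-G93A against SOD1-WT and -0.17 for SOD1-WT against nontransgenic glia. The median over all kept probes was 0.01, 0.01 and 0.00 in the same comparisons. The count of higher probes against nontransgenic glia dropped to 3 without nontransgenic replicate 1 for SOD1-G93A glia, and to 3 without nontransgenic replicate 1 or without replicate 3 for SOD1-WT glia. Arrays of the groups did not overlap for 15 of the 28 probes in SOD1-G93A against nontransgenic glia (29.4% of all kept probes), 14 in SOD1-G93A against SOD1-WT glia (30.3%) and 14 in SOD1-WT against nontransgenic glia (37.7%). In all, 17 probes of 14 genes passed in at least 1 comparison, 6 probes of 5 genes (Col1a1, Col1a2, Col6a1, Col8a2 and Col23a1) passed in all 3, and 11 probes passed in none.

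**Figure D1:**
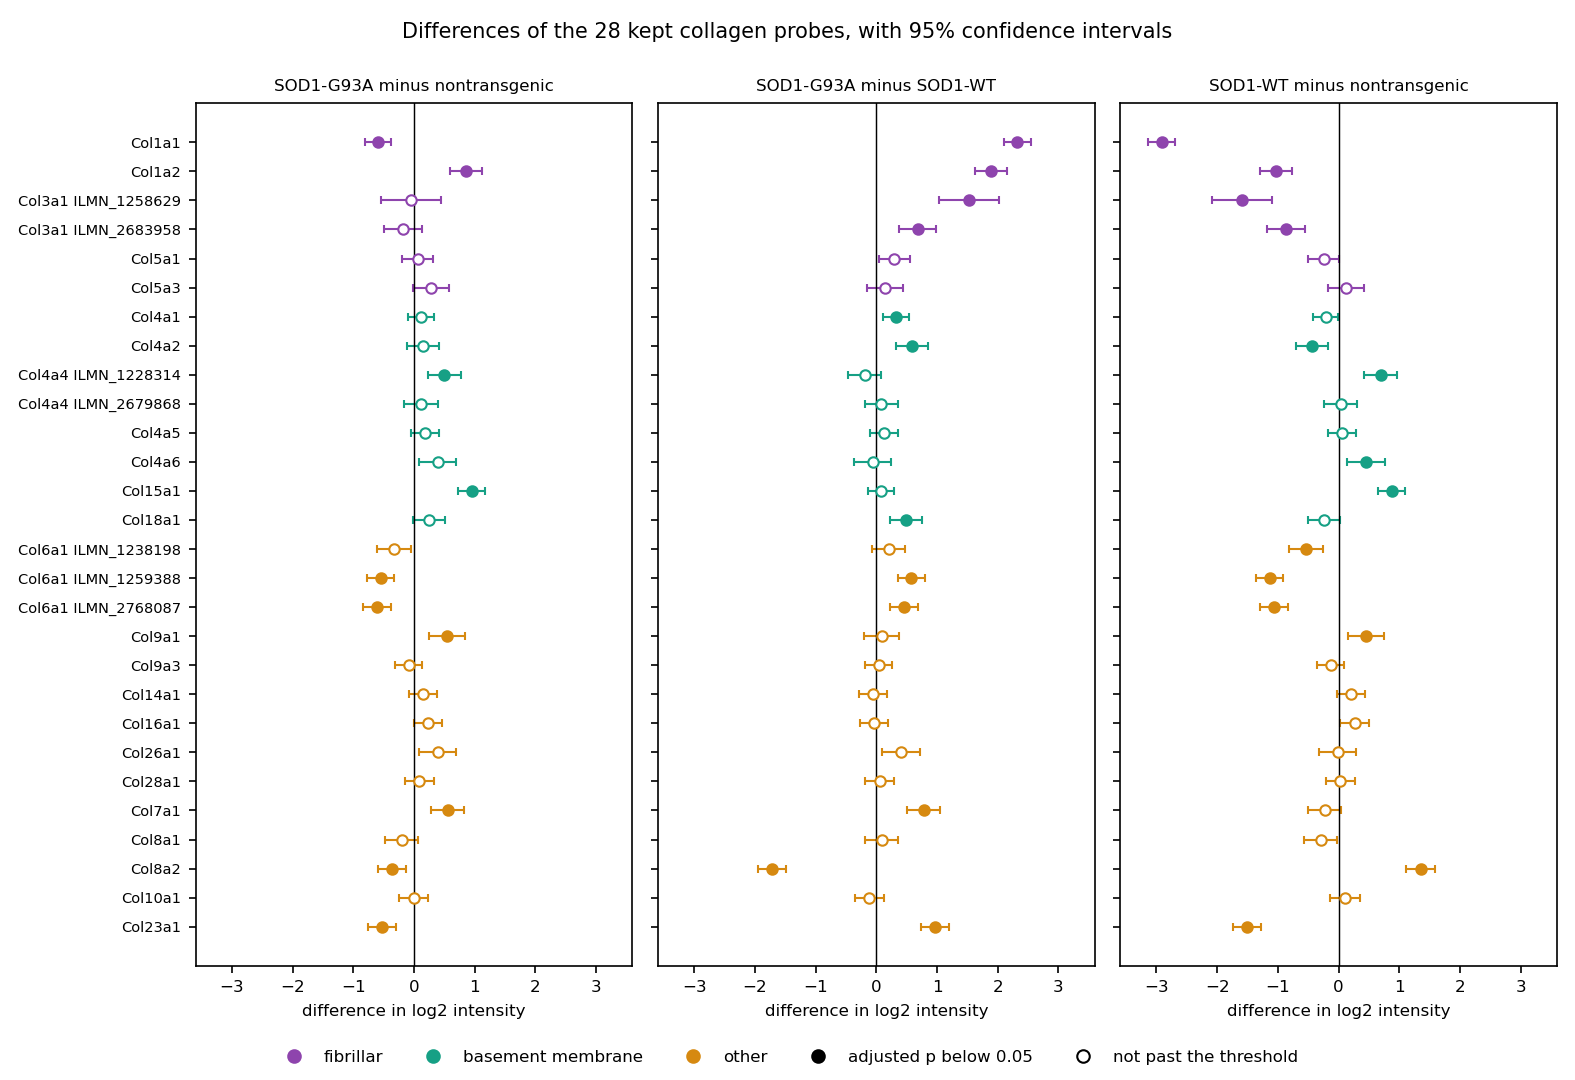
Log2 differences of the 28 kept collagen probes (rows, by class) in the 3 comparisons (panels), with 95% confidence intervals and filled points where the adjusted p was below 0.05. Fibrillar probes reach 2.32 in SOD1-G93A against SOD1-WT glia and -2.91 in SOD1-WT against nontransgenic glia.

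By class, the counts were as follows. Among the 6 kept fibrillar probes, 4 were lower in SOD1-WT than in nontransgenic glia and the same number were higher in SOD1-G93A glia than in SOD1-WT glia, with median differences of -0.95 and 1.11. Between SOD1-G93A and nontransgenic glia 1 fibrillar probe was higher and 1 lower. Among the 8 basement membrane probes, 3 were higher and 1 lower in SOD1-WT than in nontransgenic glia, 3 were higher in SOD1-G93A glia than in SOD1-WT glia, and 2 were higher in SOD1-G93A glia than in nontransgenic glia. Among the 14 other probes, the counts of higher and lower were 2 and 4 for SOD1-G93A against nontransgenic, 4 and 1 for SOD1-G93A against SOD1-WT, and 2 and 4 for SOD1-WT against nontransgenic glia. Over all kept probes, the shares higher and lower were 5.11% and 5.53% for SOD1-G93A against nontransgenic glia. They were 6.91% and 8.13% for SOD1-G93A against SOD1-WT, and 13.5% and 11.8% for SOD1-WT against nontransgenic glia. No test was made of the difference between classes.

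Type I collagen, the main fibre protein of connective tissue, is a trimer of chains encoded by Col1a1 (chromosome 11) and Col1a2 (chromosome 6). Col1a1 read 9.22, 9.11 and 9.23 in the 3 SOD1-G93A cultures, 6.80, 6.77 and 7.03 in the SOD1-WT cultures and 9.78, 9.70 and 9.87 in the nontransgenic cultures. The 3 groups did not overlap, with SOD1-WT lowest and nontransgenic highest. Its level was 5.00-fold higher in SOD1-G93A glia than in SOD1-WT glia (difference 2.32 ± 0.10, adjusted p = 2.01e-09). It was 7.54-fold lower in SOD1-WT than in nontransgenic glia (-2.91 ± 0.10, adjusted p = 1.22e-10). SOD1-G93A glia were also below nontransgenic glia, by a smaller step of -0.59 ± 0.10 (adjusted p = 0.00161).

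Col1a2, whose promoter with 2 CCAAT matches is printed above, read 6.21, 6.34 and 6.62 in SOD1-G93A cultures, 4.47, 4.36 and 4.66 in SOD1-WT cultures and 5.62, 5.41 and 5.56 in nontransgenic cultures. The groups did not overlap, but here SOD1-G93A was highest, and the probe was detected on only 1 of the 3 SOD1-WT arrays. The differences were 1.89 ± 0.12 for SOD1-G93A against SOD1-WT glia (adjusted p = 9.85e-08) and -1.03 ± 0.12 between SOD1-WT and nontransgenic glia (adjusted p = 1.98e-05). Between SOD1-G93A and nontransgenic glia Col1a2 rose by 0.86 ± 0.12 (1.82-fold, adjusted p = 0.000323), while Col1a1 fell. The partner chains therefore shared the low SOD1-WT level and had opposite signs between SOD1-G93A and nontransgenic glia. With a constant of 50 in place of 16 added before the logarithm, which by construction pulls dim probes together, the Col1a2 differences were 0.56, 1.06 and -0.50 for SOD1-G93A against nontransgenic glia, SOD1-G93A against SOD1-WT glia and SOD1-WT against nontransgenic glia, and all passed.

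Col3a1 (chromosome 1) encodes the chain of type III collagen, which joins type I in fibrils of soft tissues, and was read by 2 probes. The probe ILMN_1258629 gave 9.50, 9.69 and 9.43 in SOD1-G93A cultures, 8.36, 8.41 and 7.25 in SOD1-WT cultures and 9.57, 9.52 and 9.70 in nontransgenic cultures. SOD1-WT lay below both other groups, which overlapped each other. It was 2.89-fold higher in SOD1-G93A glia than in SOD1-WT glia (1.53 ± 0.23, adjusted p = 0.000317) and 3.00-fold lower in SOD1-WT than in nontransgenic glia (-1.59 ± 0.23, adjusted p = 0.000136). The dimmer probe ILMN_2683958 gave 6.14, 6.02 and 6.16 in SOD1-G93A cultures, 5.25, 5.23 and 5.81 in SOD1-WT cultures and 6.11, 6.38 and 6.37 in nontransgenic cultures. It had the same order with smaller differences of 0.68 ± 0.14 (adjusted p = 0.0049) and -0.86 ± 0.14 (adjusted p = 0.000494). SOD1-WT replicate 3 was the lowest SOD1-WT array by the first probe and the highest by the second. For SOD1-G93A against nontransgenic glia, the differences were -0.05 (95% interval -0.55 to 0.44, adjusted p = 0.934) and -0.18 (-0.49 to 0.13, adjusted p = 0.543), and neither passed. With the added constant of 50, the second probe gave 0.41 for SOD1-G93A against SOD1-WT and -0.54 for SOD1-WT against nontransgenic glia, and both passed.

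Type V collagen starts type I fibrils and limits their width. Its main chain gene Col5a1 (chromosome 2) read 9.41, 9.40 and 9.45 in SOD1-G93A cultures, 8.91, 9.11 and 9.35 in SOD1-WT cultures and 9.22, 9.49 and 9.38 in nontransgenic cultures. No comparison passed: the differences were 0.06 for SOD1-G93A against nontransgenic (adjusted p = 0.855), 0.30 for SOD1-G93A against SOD1-WT glia (95% interval 0.04 to 0.55, adjusted p = 0.119) and -0.24 between SOD1-WT and nontransgenic glia (-0.50 to 0.01, adjusted p = 0.165). Without SOD1-WT replicate 3, the Col5a1 array nearest the other groups, the last 2 passed (0.41, adjusted p = 0.0226, and -0.35, adjusted p = 0.0314). Col5a3, another chain of type V, was detected on 2 SOD1-G93A arrays, 1 SOD1-WT array and no nontransgenic array, and no difference passed (adjusted p = 0.273 to 0.567). Fibrillar members without a kept probe were Col2a1 and Col11a2, both cartilage collagens, Col5a2, Col11a1 and Col27a1. Of 4 probes for Col11a1, ILMN_2606039 and ILMN_2776931 were each detected on 2 of 3 SOD1-G93A arrays and on none of the other 6. The brighter, ILMN_2776931, read 4.71, 4.62 and 4.84 in SOD1-G93A cultures, 4.41, 4.29 and 4.38 in SOD1-WT cultures and 4.30, 4.26 and 4.31 in nontransgenic cultures. These levels lie close to the lowest detected level of 4.56 to 4.64 on each array, and the gene was not among the tested probes.

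**Figure D2:**
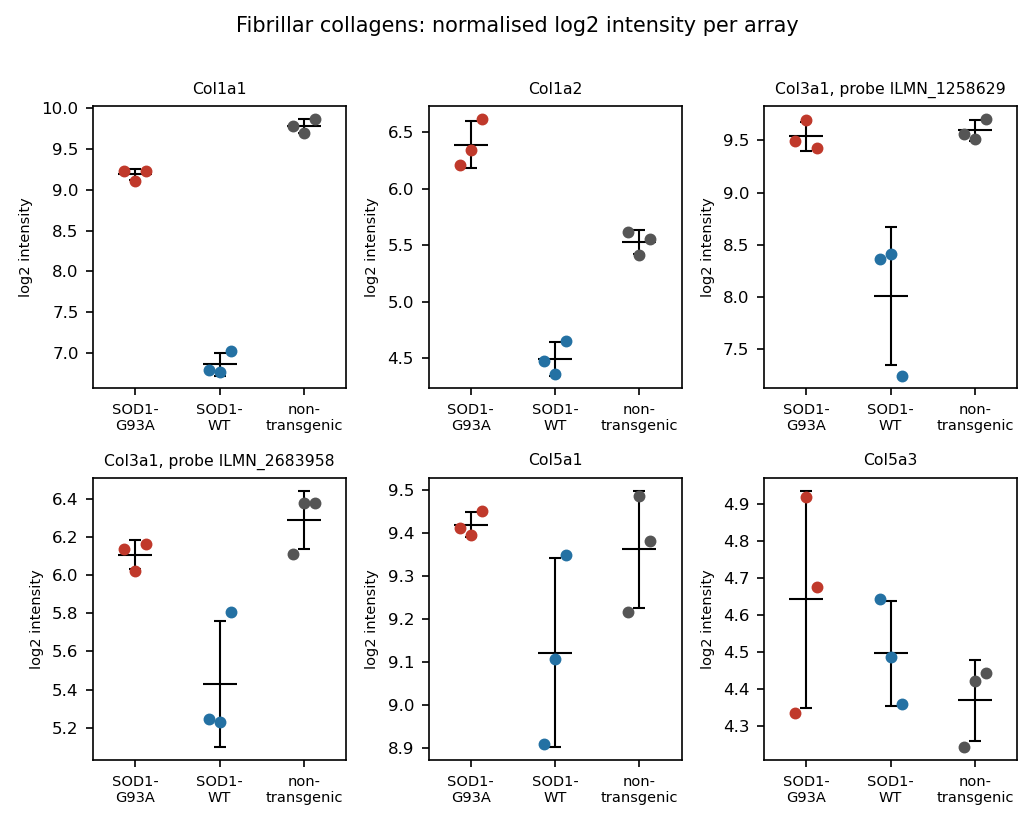
Log2 normalised intensity of the kept fibrillar collagen probes on each of 9 arrays (points) with group means and SD (bars), each panel on its own scale, SOD1-G93A, SOD1-WT and nontransgenic from left to right. Col1a1, Col1a2 and both Col3a1 probes are lowest in SOD1-WT glia, while the Col5a1 groups lie within 8.91 to 9.49.

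Summed over the 6 kept fibrillar probes on the linear scale, the signal was 2166 to 2230 units in SOD1-G93A cultures, 1006 to 1083 in SOD1-WT cultures and 2366 to 2586 in nontransgenic cultures. Markers of meningeal fibroblasts moved with it. Of 15 leptomeningeal and fibroblast genes in a list without collagens, 13 were kept (not Foxc1 and Slc13a4). All 13 were lower in SOD1-WT than in nontransgenic glia (11.8% of all kept probes). Higher in SOD1-G93A glia than in SOD1-WT glia were 12 (6.91% of all kept probes), with 1 not passing. Over the 21 alternatives these counts were 9 to 13 and 9 to 12. A marker can be kept through the group in which it is high, as Slc22a6 was through nontransgenic arrays alone. The counts therefore describe the kept markers and are no separate support for the collagen differences. SOD1-G93A glia had 1 higher, 7 lower and 5 not passing against nontransgenic glia (5.11% higher and 5.53% lower of all kept probes). The 7 were 4 when a probe had to be detected on all arrays, a rule that removes some of these markers. Their summed signal was 25330 to 26480 in SOD1-G93A cultures, 5624 to 7141 in SOD1-WT cultures and 32530 to 34700 in nontransgenic cultures. Of these markers, the transcription factor gene Foxc2 was not above background on any SOD1-WT array. It was at least 6.79-fold lower there than in SOD1-G93A glia and at least 21.1-fold lower than in nontransgenic glia. Slc22a6 and Crabp2 were not above background on any SOD1-WT array either, and were detected on 0 and 1 of the SOD1-G93A arrays. Lum, which encodes the fibril-binding proteoglycan lumican, averaged 8.14 in SOD1-G93A, 4.43 in SOD1-WT (detected on 1 of 3 arrays) and 7.35 in nontransgenic glia. Lum was thus higher in SOD1-G93A glia than in nontransgenic glia (0.79 ± 0.10, adjusted p = 0.000187), as Col1a2 was. No other marker of the list was. The part of meningeal cells in the collagen differences was not tested, and in cultures read as a whole, fewer cells of a type and less RNA per cell cannot be told apart.

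**Figure D3:**
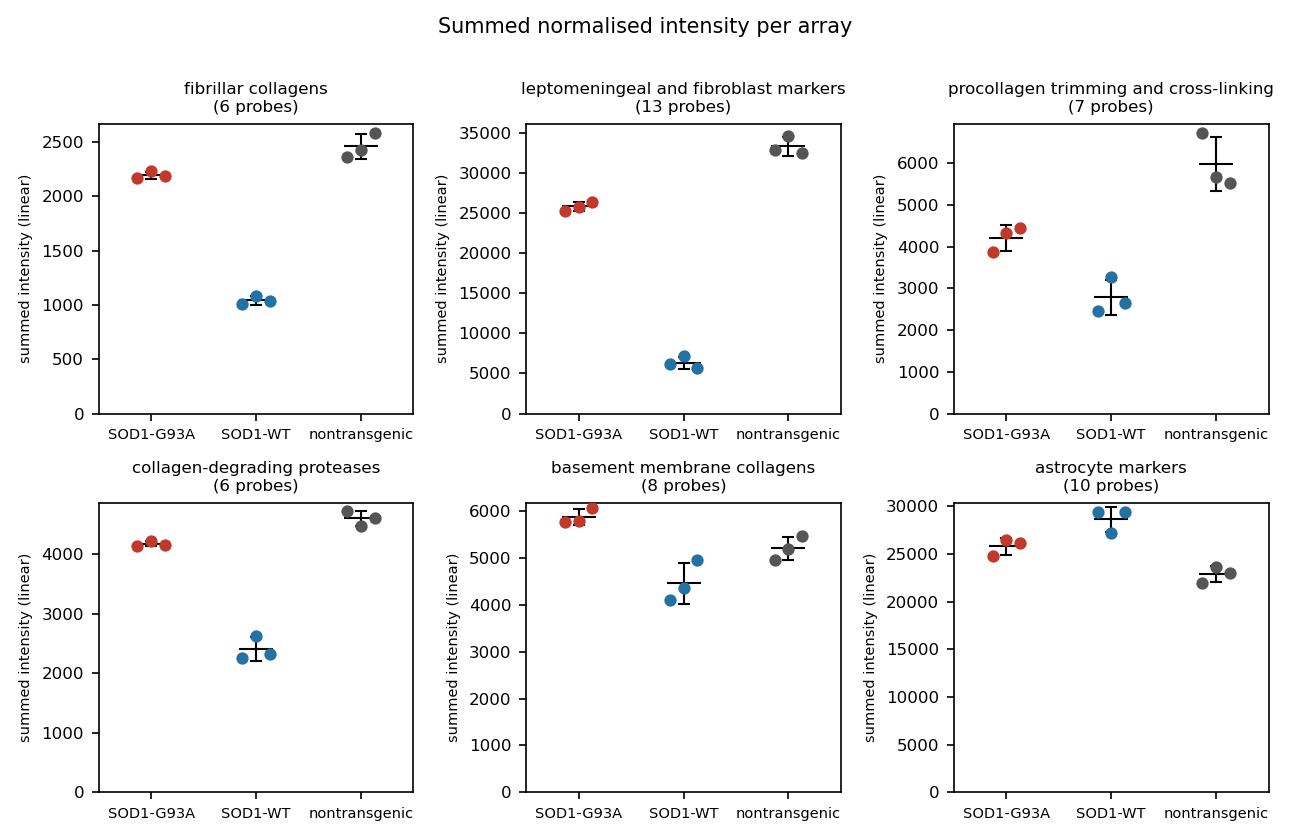
Summed linear intensity of the fibrillar and basement membrane collagens, 2 lists of collagen-related genes and 2 lists of cell markers on each of 9 arrays (points) with group means and SD (bars), each panel on its own scale, SOD1-G93A, SOD1-WT and nontransgenic from left to right. The fibrillar sum lies at 1006 to 1083 in SOD1-WT cultures beside a leptomeningeal sum of 5624 to 7141, both the lowest of the 3 groups.

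Of the 8 kept basement membrane probes, 3 were higher and 1, that of Col4a2, was lower in SOD1-WT than in nontransgenic glia. Over all kept probes the shares were 13.5% higher and 11.8% lower. Col4a1 and Col4a2 encode the chains of the common type IV trimer and are the neighbours whose overlapping promoters are printed above. Col4a1 read 10.61, 10.62 and 10.66 in SOD1-G93A cultures, 10.28, 10.24 and 10.38 in SOD1-WT cultures and 10.36, 10.56 and 10.63 in nontransgenic cultures. Col4a2 read 11.07, 11.15 and 11.20 in SOD1-G93A cultures, 10.29, 10.54 and 10.84 in SOD1-WT cultures and 10.98, 11 and 10.99 in nontransgenic cultures. For both genes every SOD1-G93A array lay above every SOD1-WT array. SOD1-G93A exceeded SOD1-WT by 0.33 ± 0.10 for Col4a1 (adjusted p = 0.0374) and by 0.58 ± 0.12 for Col4a2 (1.50-fold, adjusted p = 0.0048). Col4a2 was lower in SOD1-WT than in nontransgenic glia by -0.44 ± 0.12 (adjusted p = 0.0182), and Col4a1 did not pass (-0.21, 95% interval -0.43 to 0.00, adjusted p = 0.137). Neither passed between SOD1-G93A and nontransgenic glia (0.12, adjusted p = 0.572, and 0.15, adjusted p = 0.566). The Col4a1 call was lost, at adjusted p-values of 0.055 to 0.181, with scaling by medians and without any 1 of nontransgenic replicate 2, SOD1-G93A replicates 1, 2 or 3 and SOD1-WT replicates 1 or 2, and the Col4a2 call against nontransgenic glia without nontransgenic replicate 2 (-0.43, adjusted p = 0.0535) or SOD1-WT replicate 1 (-0.30, adjusted p = 0.0788).

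The remaining type IV chains form networks of narrower distribution, and their genes lie in neighbour pairs too. Col4a4 (chromosome 1), by the probe ILMN_1228314, read 5.53, 5.81 and 5.54 in SOD1-G93A cultures, 6.07, 5.75 and 5.64 in SOD1-WT cultures and 4.98, 5.17 and 5.22 in nontransgenic cultures. Both transgenic groups lay above the nontransgenic group and overlapped each other. The rise was 0.50 ± 0.13 in SOD1-G93A (adjusted p = 0.0209) and 0.70 ± 0.13 in SOD1-WT glia (adjusted p = 0.00102) against nontransgenic glia. A second probe, ILMN_2679868, was detected on 1 array of each group and passed in no comparison (differences of 0.03 to 0.12). The SOD1-G93A rise was lost when nontransgenic replicate 1 (0.43, adjusted p = 0.0932), its replicate 2 (0.52, adjusted p = 0.053) or the second SOD1-G93A culture (0.41, adjusted p = 0.104) was left out, in the authors' normalised table (0.44, adjusted p = 0.0555), with the constant of 50 (0.28, adjusted p = 0.0561) and with no filter (adjusted p = 0.0694). The SOD1-WT rise was 0.40 with that constant and passed.

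Col4a5 and Col4a6 are neighbours on the X chromosome. Col4a5 passed in no comparison (0.18, 0.13 and 0.05 for SOD1-G93A against nontransgenic glia, SOD1-G93A against SOD1-WT glia and SOD1-WT against nontransgenic glia, adjusted p = 0.365 to 0.773). Col4a6 read 7.76, 7.94 and 8.04 in SOD1-G93A cultures, 8.06, 7.76 and 8.10 in SOD1-WT cultures and 7.22, 7.76 and 7.58 in nontransgenic cultures. The SOD1-WT and nontransgenic values met at 7.76. The SOD1-WT rise over nontransgenic glia was 0.45 ± 0.14 (adjusted p = 0.0309), and the SOD1-G93A difference of 0.39 did not pass (adjusted p = 0.107). The SOD1-WT call was lost under 7 of 21 alternatives: with no filter, array weights or only the 2 groups in the fit, and without nontransgenic replicates 1 (0.30, adjusted p = 0.144) or 3 (0.49, adjusted p = 0.0528) or SOD1-WT replicates 1 (0.41, adjusted p = 0.0949) or 3 (0.39, adjusted p = 0.0825). A sex-linked gene moved with the groups. The Y-linked Kdm5d, the 1 kept gene of 5 in a sex-linked list, was detected on all 3 SOD1-WT arrays and on none of the other 6. It was at least 5.04-fold higher in SOD1-WT than in SOD1-G93A glia and 5.05-fold higher than in nontransgenic glia. The Y-linked Eif2s3y and Uty were on the array but not kept, so neither was detected on all 3 SOD1-WT arrays. Xist and Ddx3y had no probe with their symbol. The part of pup sex in any collagen difference was not tested.

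Col15a1 (chromosome 4) and Col18a1 (chromosome 10) encode the related types XV and XVIII, which carry sugar chains and link the basement membrane to the matrix around it, and the end of type XVIII can be released as endostatin. Col15a1 read 5.80, 5.93 and 5.93 in SOD1-G93A cultures, 5.99, 5.70 and 5.74 in SOD1-WT cultures and 4.99, 4.93 and 4.88 in nontransgenic cultures. All 6 transgenic cultures lay above all nontransgenic cultures. The rise was 0.95 ± 0.10 in SOD1-G93A (1.94-fold, adjusted p = 2.92e-05) and 0.87 ± 0.10 in SOD1-WT glia (1.83-fold, adjusted p = 1.93e-05) over nontransgenic glia. Both shared the nontransgenic arrays, and SOD1-G93A and SOD1-WT glia differed by 0.08 (95% interval -0.14 to 0.30, adjusted p = 0.702). These rises were 0.53 and 0.48 with the constant of 50 and passed.

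Col18a1 read 10.18, 10.07 and 10.22 in SOD1-G93A cultures, 9.50, 9.79 and 9.72 in SOD1-WT cultures and 9.84, 9.74 and 10.15 in nontransgenic cultures. SOD1-G93A lay above SOD1-WT without overlap, and the nontransgenic cultures overlapped both. SOD1-G93A exceeded SOD1-WT by 0.49 ± 0.12 (1.40-fold, adjusted p = 0.0136). The other comparisons did not pass (0.25, adjusted p = 0.259, for SOD1-G93A against nontransgenic and -0.24, adjusted p = 0.174, for SOD1-WT against nontransgenic glia). The call was lost with scaling by medians (0.43, adjusted p = 0.0609) and without SOD1-G93A replicate 3 (0.45, adjusted p = 0.0561) or SOD1-WT replicate 1 (0.40, adjusted p = 0.0598). Second probes for Col4a6 and Col18a1 and the probe for Col4a3 were detected on at most 1 array and were not kept.

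**Figure D4:**
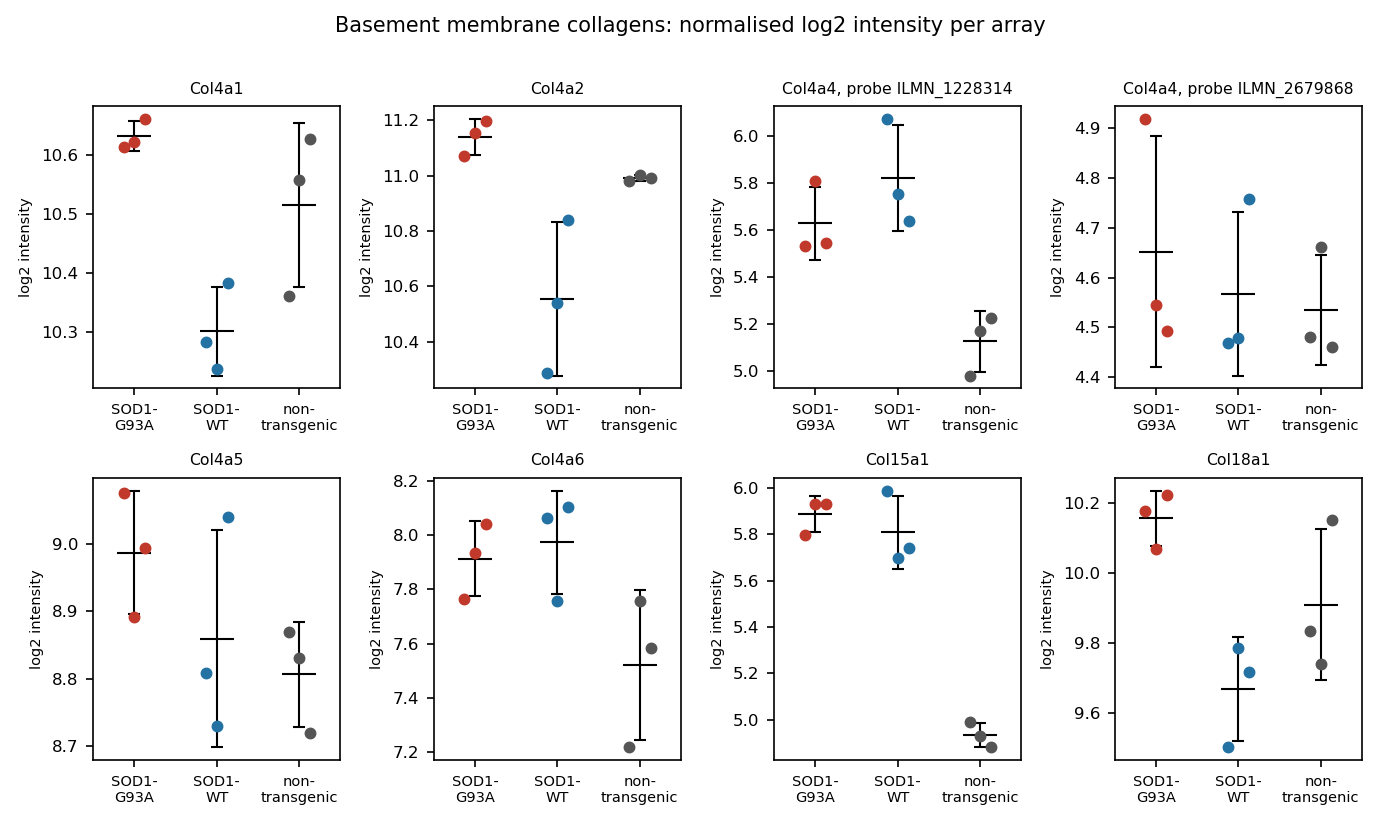
Log2 normalised intensity of the kept basement membrane collagen probes on each of 9 arrays (points) with group means and SD (bars), each panel on its own scale, SOD1-G93A, SOD1-WT and nontransgenic from left to right. Col15a1 lies at 5.70 to 5.99 in both transgenic groups and at 4.88 to 4.99 in nontransgenic glia, while Col4a2 is lowest in SOD1-WT glia.

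The summed basement membrane signal was 5761 to 6064 units in SOD1-G93A cultures, 4089 to 4942 in SOD1-WT cultures and 4953 to 5459 in nontransgenic cultures. Endothelial and mural cells also make these collagens. Of 8 endothelial genes 5 were kept, with Kdr, Tek and Cldn5 not kept, and their summed signal was 367.5 to 396.7 in SOD1-G93A, 229.3 to 263.5 in SOD1-WT and 556.6 to 614.9 units in nontransgenic cultures. Cdh5, the cadherin of endothelial junctions, was not above background on any SOD1-WT array, at least 8.5-fold lower there than in SOD1-G93A glia and at least 16.6-fold lower than in nontransgenic glia. The order of the sums rests on Cdh5: the other 4 genes summed to 164.4 to 179 units in SOD1-G93A, 208.5 to 244.1 in SOD1-WT and 165.8 to 192.2 in nontransgenic cultures. The receptor Flt1 and the surface protein Emcn were higher in SOD1-WT than in nontransgenic glia, by 0.50 (adjusted p = 0.00185) and 0.69 (adjusted p = 0.00296, or 0.42 with the constant of 50). Lower in SOD1-G93A glia than in nontransgenic glia were 2 of the 5, a count of 1 without any 1 replicate of either group. Against SOD1-WT glia 1 was higher and 1 lower (2 without SOD1-WT replicate 1), and in SOD1-WT glia 2 were higher and 1 lower (2 without SOD1-WT replicate 2) than in nontransgenic glia. Of 8 mural genes 5 were kept, with a summed signal of 6357 to 7546 in SOD1-G93A, 8388 to 9922 in SOD1-WT and 6195 to 6473 units in nontransgenic cultures. This order rests on the smooth muscle actin gene Acta2, whose probe in the sum was 0.62 higher in SOD1-WT than in nontransgenic glia (adjusted p = 0.000584). Its other kept probes gave 0.89 (adjusted p = 1.98e-05) and 1.24 (adjusted p = 4.73e-05). For SOD1-G93A against SOD1-WT glia the probe in the sum gave -0.42 (adjusted p = 0.0146). The others gave -0.65 (adjusted p = 0.000643) and -1.01 (adjusted p = 0.000521). Without Acta2 the sums were 736.2 to 881.2 in SOD1-G93A, 586.9 to 735.4 in SOD1-WT and 859.2 to 1025 units in nontransgenic cultures. The 3 mural genes lower in SOD1-WT than in nontransgenic glia were the receptors Pdgfrb (-0.69, adjusted p = 0.000114) and Notch3 (-0.61, adjusted p = 0.000344) and the peptidase Anpep (-0.66, adjusted p = 0.0207), the last of which did not pass with no filter or without nontransgenic replicates 1 or 3 or SOD1-WT replicates 1 or 2 (-0.67 to -0.46, adjusted p = 0.0509 to 0.107). None of the 5 passed between SOD1-G93A and nontransgenic glia in the fit of all arrays (1 was lower without SOD1-WT replicate 2 or 3), 2 were higher and 1 lower against SOD1-WT glia (0 lower without SOD1-G93A replicate 2), and 1 was higher and 3 lower in SOD1-WT glia than in nontransgenic glia. Over all kept probes, 5.11% were higher and 5.53% lower in SOD1-G93A than in nontransgenic glia. The shares were 6.91% and 8.13% for SOD1-G93A against SOD1-WT, and 13.5% and 11.8% for SOD1-WT against nontransgenic glia. The part of endothelial and mural cells in the basement membrane values was not tested.

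Type VI collagen forms beaded filaments around cells. Its gene Col6a1 (chromosome 10) was read by 3 probes. ILMN_2768087 gave 9.67, 9.69 and 9.80 in SOD1-G93A cultures, 9.35, 9.22 and 9.24 in SOD1-WT cultures and 10.53, 10.20 and 10.25 in nontransgenic cultures. ILMN_1259388 gave 8.63, 8.65 and 8.69 in SOD1-G93A cultures, 8.08, 8.22 and 7.93 in SOD1-WT cultures and 9.27, 9.28 and 9.08 in nontransgenic cultures. By both probes the groups did not overlap and had the order of Col1a1, with SOD1-WT lowest and nontransgenic highest. The differences were -0.61 ± 0.11 and -0.55 ± 0.10 for SOD1-G93A against nontransgenic (adjusted p = 0.00169 and 0.00303), 0.45 ± 0.11 and 0.58 ± 0.10 for SOD1-G93A against SOD1-WT glia (adjusted p = 0.0097 and 0.00133), and -1.06 ± 0.11 and -1.13 ± 0.10 for SOD1-WT against nontransgenic glia (adjusted p = 3.83e-06 and 1.58e-06). The third probe, ILMN_1238198, was near the detection limit (detected on 2 SOD1-G93A, 1 SOD1-WT and 3 nontransgenic arrays). It passed only for SOD1-WT against nontransgenic glia (-0.53 ± 0.13, adjusted p = 0.00746; -0.24 with the constant of 50).

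Types VII, VIII and X build anchoring fibrils and open networks. Col8a2 (chromosome 4), a chain of type VIII in the network of the corneal membrane and of vessels, read 6.06, 5.88 and 5.89 in SOD1-G93A cultures, 7.69, 7.64 and 7.65 in SOD1-WT cultures and 6.49, 6.11 and 6.33 in nontransgenic cultures. SOD1-WT stood far above both others, and this was the only kept collagen probe lower in SOD1-G93A glia than in SOD1-WT glia. The difference was -1.72 ± 0.11 for SOD1-G93A against SOD1-WT glia (3.28-fold lower, adjusted p = 9.38e-08) and 1.35 ± 0.11 between SOD1-WT and nontransgenic glia (2.55-fold, adjusted p = 4.56e-07). The step between SOD1-G93A and nontransgenic glia, -0.36 ± 0.11, passed by little (adjusted p = 0.0496). It did not pass under 17 of 21 alternatives (-0.47 to -0.25 over all 21, adjusted p up to 0.204), among them leaving out nontransgenic replicates 1 (-0.27) or 3 (-0.35), any 1 SOD1-G93A replicate (-0.42 to -0.33) or SOD1-WT replicates 1 or 2 (-0.36). The partner chain Col8a1 (chromosome 16) read 9.56, 10.08 and 9.94 in SOD1-G93A cultures, 9.76, 9.66 and 9.89 in SOD1-WT cultures and 10.06, 10.08 and 10.05 in nontransgenic cultures. It passed in no comparison, with -0.30 for SOD1-WT against nontransgenic glia (95% interval -0.57 to -0.02, adjusted p = 0.107).

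Col7a1 (chromosome 9), which encodes the anchoring fibril collagen known from skin, read 5.94, 5.82 and 5.97 in SOD1-G93A cultures, 4.85, 5.31 and 5.24 in SOD1-WT cultures and 5.50, 5.34 and 5.23 in nontransgenic cultures. SOD1-G93A lay above both other groups, which overlapped. The rise was 0.55 ± 0.13 over nontransgenic (adjusted p = 0.0107) and 0.78 ± 0.13 over SOD1-WT glia (adjusted p = 0.000602), while SOD1-WT and nontransgenic glia differed by -0.23 (-0.50 to 0.04, adjusted p = 0.222). With the constant of 50 the rises were 0.33 and 0.44 and passed. A second Col7a1 probe was detected on no array. Col10a1, the collagen of growth plate cartilage, passed in no comparison (-0.01, -0.11 and 0.11).

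Fibril-associated collagens sit on the surface of other fibrils. Col9a1 (chromosome 1), known from cartilage, read 5.90, 5.71 and 5.86 in SOD1-G93A cultures, 5.68, 5.46 and 6.05 in SOD1-WT cultures and 5.19, 5.39 and 5.26 in nontransgenic cultures. Both transgenic groups lay above the nontransgenic group. The rise was 0.55 ± 0.14 in SOD1-G93A (adjusted p = 0.0181) and 0.45 ± 0.14 in SOD1-WT glia (adjusted p = 0.0236). Each rise lost its call under 5 of 21 alternatives: for SOD1-G93A with no filter and without nontransgenic replicates 1 (0.50) or 3 (0.54) or SOD1-G93A replicates 1 (0.51) or 3 (0.52), at adjusted p-values of 0.0529 to 0.0749, and for SOD1-WT with no filter, with array weights and without nontransgenic replicates 1 (0.41) or 3 (0.44, adjusted p = 0.0627) or SOD1-WT replicate 3 (0.29, adjusted p = 0.0753). The constant of 50 gave 0.32 and 0.26, which passed. Col14a1, Col16a1 and Col9a3 passed in no comparison, and Col16a1 came closest, at 0.27 for SOD1-WT against nontransgenic glia (adjusted p = 0.0942). That difference passed without SOD1-WT replicate 3 (0.36, adjusted p = 0.0233), and for Col14a1 it passed without SOD1-WT replicate 1 (0.31, adjusted p = 0.0443, against 0.20 with all arrays).

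Col23a1 (chromosome 11) encodes a membrane-spanning collagen whose outer part can be shed. It read 6.06, 6.06 and 6.18 in SOD1-G93A cultures, 5.00, 5.14 and 5.25 in SOD1-WT cultures and 6.47, 6.66 and 6.77 in nontransgenic cultures. The groups did not overlap and had the order of Col1a1 and Col6a1. The differences were -0.53 ± 0.11 for SOD1-G93A against nontransgenic (adjusted p = 0.00502), 0.97 ± 0.11 for SOD1-G93A against SOD1-WT glia (1.96-fold, adjusted p = 2.06e-05) and -1.50 ± 0.11 between SOD1-WT and nontransgenic glia (2.84-fold lower, adjusted p = 1.27e-07). The last 2 were 0.57 and -0.95 with the constant of 50 and passed. Col26a1 differed by 0.39 between SOD1-G93A and nontransgenic glia (adjusted p = 0.109) and by 0.41 between SOD1-G93A and SOD1-WT glia (adjusted p = 0.0742), and neither passed. The first passed without nontransgenic replicate 3 (0.58, adjusted p = 0.0079), and the second without nontransgenic replicate 3 (0.41, adjusted p = 0.02) or SOD1-WT replicate 3 (0.49, adjusted p = 0.0467). Col28a1, a short beaded collagen, passed in no comparison (0.09, 0.06 and 0.03).

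**Figure D5:**
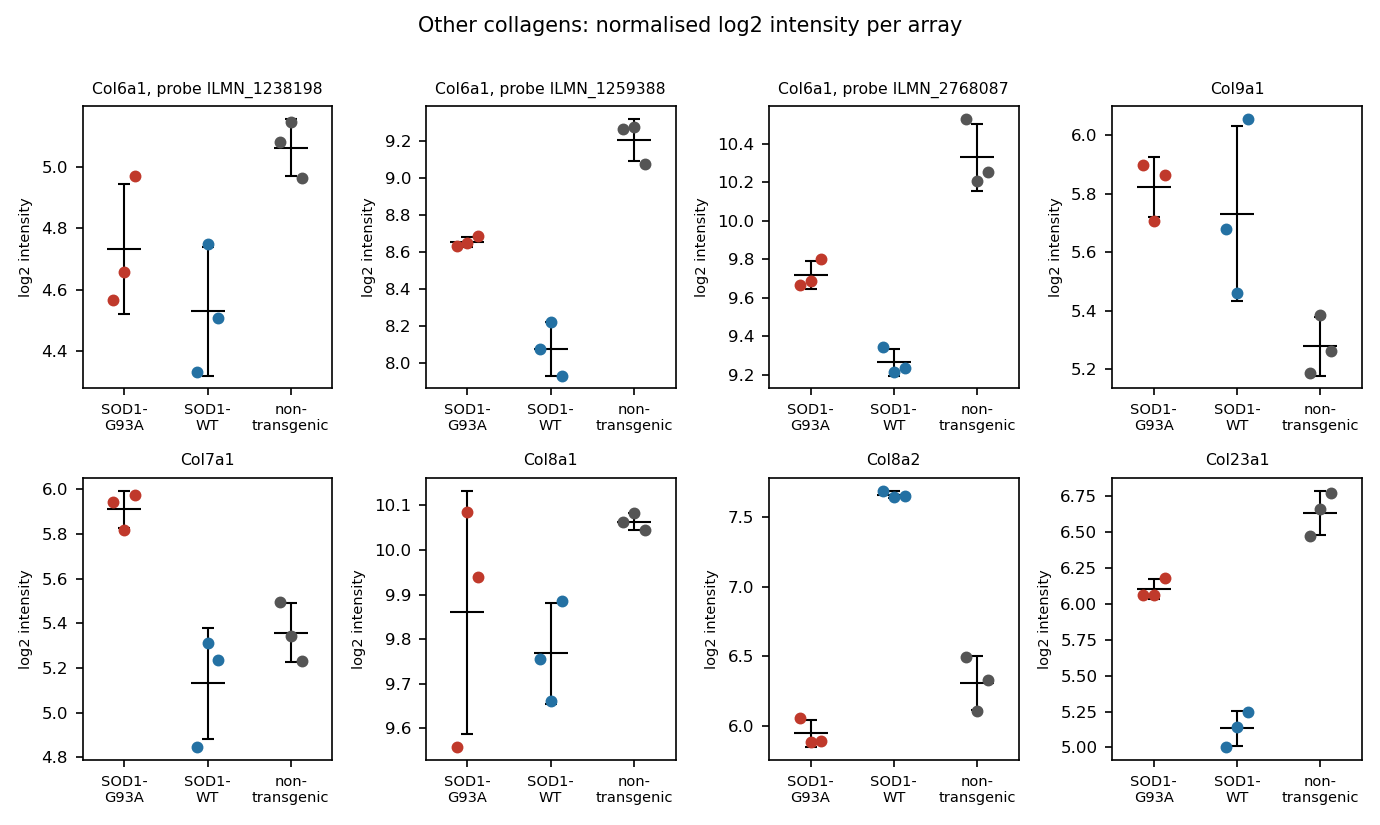
Log2 normalised intensity of the other collagen probes that passed in at least 1 comparison, and of Col8a1, on each of 9 arrays (points) with group means and SD (bars), each panel on its own scale, SOD1-G93A, SOD1-WT and nontransgenic from left to right. Col8a2 lies at 7.64 to 7.69 in SOD1-WT glia, above the other groups, while Col23a1 and 2 Col6a1 probes are lowest there.

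Members of these other types without a kept probe were Col6a4 and Col6a6 of type VI, the fibril-associated Col9a2 and Col19a1, and the membrane-spanning Col13a1, Col17a1 and Col25a1. Col25a1, a collagen of neurons, was detected on no array by any of 5 probes. Over the whole family, 22 probes were detected on all 9 arrays, 20 on none and 7 on 1 or 2. No probe was detected for 8 genes, which says only that these probes were not above background. The summed signal of the other collagens was 3468 to 3938 in SOD1-G93A cultures, 3360 to 3529 in SOD1-WT cultures and 4262 to 4499 units in nontransgenic cultures. Col6a1 enters this sum by each of its kept probes, and the 2 bright ones were highest in nontransgenic glia (means of 10.33 and 9.21). Of other bright probes, Col8a1 had its highest mean in nontransgenic glia (10.06) and Col16a1 its lowest (9.86). No sum without Col6a1 was made, so the order is not shown for the class apart from that gene. For 13 of the 28 kept collagen probes the SOD1-G93A mean lay between the means of the other groups. The same share was not computed over all kept probes, so this count shows nothing particular to collagens.

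Genes that build collagen inside the cell include the proline and lysine hydroxylases and the collagen chaperone. Of 19 such genes 16 were kept. SOD1-G93A glia had 4 higher than SOD1-WT glia, and 1 lower than nontransgenic glia, while SOD1-WT glia had 7 lower than nontransgenic glia. The shares of all kept probes were 6.91%, 5.53% and 11.8% in the same order, so the count of 1 shows nothing particular to the list. The medians were 0.14, -0.19 and -0.29. Plod1, a lysyl hydroxylase, differed by -0.77 between SOD1-WT and nontransgenic glia (adjusted p = 8.66e-05), P3h3, a prolyl 3-hydroxylase family member, by -0.92 (adjusted p = 0.000114), the prolyl 4-hydroxylase subunit P4ha2 by -1.04 (adjusted p = 0.000536) and the chaperone Serpinh1 by -0.52 (adjusted p = 0.00126). All 4 were higher in SOD1-G93A glia than in SOD1-WT glia (Plod1 0.40, adjusted p = 0.0204, P3h3 0.58, 0.00767, P4ha2 0.64, 0.026, and Serpinh1 0.40, 0.0116). Plod1 was the gene lower in SOD1-G93A glia than in nontransgenic glia (-0.37, adjusted p = 0.0384). The count of 4 was 2 without SOD1-G93A replicates 1 or 2 or SOD1-WT replicate 1. The count of 1 was 0 without nontransgenic replicates 1 or 2 or any 1 SOD1-G93A replicate, and 2 without SOD1-WT replicate 3. Single calls were lost in the same way: Plod1 against SOD1-WT glia without SOD1-G93A replicates 1 or 2 or SOD1-WT replicates 1 or 3 (0.35 to 0.41, adjusted p = 0.0535 to 0.0894) and with scaling by medians (0.33, adjusted p = 0.0778), P4ha2 without SOD1-G93A replicates 2 or 3 or SOD1-WT replicates 1 or 3 (0.49 to 0.62, adjusted p = 0.0693 to 0.111) and with no filter (adjusted p = 0.122), and Serpinh1 without SOD1-G93A replicate 1 (0.38, adjusted p = 0.0527).

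Procollagen is then trimmed and cross-linked outside the cell. Of 13 genes for these steps 7 were kept. Higher in SOD1-G93A glia than in SOD1-WT glia were 4, lower in SOD1-G93A glia than in nontransgenic glia were 2, and lower in SOD1-WT than in nontransgenic glia were 5 (medians 0.62, -0.05 and -0.52). The shares of all kept probes were 6.91%, 5.53% and 11.8% in the same order. Pcolce, which enhances the trimming of procollagen, was 1.20 higher in SOD1-G93A glia than in SOD1-WT glia (adjusted p = 7.21e-06), -0.65 against nontransgenic glia in SOD1-G93A (adjusted p = 0.00285) and -1.85 in SOD1-WT glia (adjusted p = 4.81e-08). The cross-linking enzyme Lox had the same order, with 0.71 (adjusted p = 0.00352), -0.74 (adjusted p = 0.00422) and -1.45 (adjusted p = 3.8e-06). Loxl2 and Pcolce2 were also higher in SOD1-G93A glia than in SOD1-WT glia (0.62, adjusted p = 0.00128, and 0.67, adjusted p = 0.00988) and lower in SOD1-WT than in nontransgenic glia (-0.68, adjusted p = 0.000331, and -0.52, adjusted p = 0.027). The count of 5 was 3 without nontransgenic replicates 1 or 2 or SOD1-WT replicate 1, and 3 with no filter. Pcolce2 lost the call against nontransgenic glia without nontransgenic replicates 1 (-0.34, adjusted p = 0.128) or 2 (-0.48) or SOD1-WT replicates 1 (-0.52) or 2 (-0.48), and both its calls with no filter (adjusted p = 0.061 and 0.104). Its differences with the constant of 50, 0.44 and -0.34, passed. A second Pcolce2 probe gave 0.64 (adjusted p = 0.00132) and -0.41 (adjusted p = 0.017) in the same comparisons.

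Proteases that cut collagen had their lowest summed signal in SOD1-WT glia (4142 to 4226 units in SOD1-G93A, 2260 to 2630 in SOD1-WT and 4469 to 4725 in nontransgenic cultures). All 6 kept genes of 7 were higher in SOD1-G93A glia than in SOD1-WT glia, and 5 were lower in SOD1-WT than in nontransgenic glia (medians 0.88 and -0.73). The shares of all kept probes were 6.91% and 11.8%. Between SOD1-G93A and nontransgenic glia 1 was lower and 5 did not pass (median 0.02, with 5.53% of all kept probes lower). Ctsk, the collagen-cutting cathepsin of bone, differed by -0.97, 1.16 and -2.12 in SOD1-G93A against nontransgenic glia, SOD1-G93A against SOD1-WT glia and SOD1-WT against nontransgenic glia (adjusted p = 2.97e-05, 2.7e-06 and 3.76e-09). Mmp2, a gelatinase, was 1.47 higher in SOD1-G93A glia than in SOD1-WT glia (adjusted p = 4.07e-07) and differed by -1.57 between SOD1-WT and nontransgenic glia (adjusted p = 1.02e-07). The membrane protease Fap and the collagenase Mmp13 were higher in SOD1-G93A glia than in SOD1-WT glia by 0.97 (adjusted p = 0.000244) and 0.79 (adjusted p = 0.0012), and differed by -0.81 (adjusted p = 0.000655) and -0.65 (adjusted p = 0.00324) between SOD1-WT and nontransgenic glia. A second Mmp13 probe gave 0.90 (adjusted p = 0.0363) and -0.65, which did not pass (adjusted p = 0.0965). With the constant of 50 the Fap differences were 0.48 and -0.40 and passed.

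Collagen receptors were mixed. Of 10 genes 6 were kept, and 1 was higher and 1 lower in SOD1-G93A glia than in nontransgenic glia, 1 was higher in SOD1-G93A glia than in SOD1-WT glia, and 1 was higher and 2 lower in SOD1-WT than in nontransgenic glia (medians -0.14, 0.13 and -0.32). In the same order, the shares of all kept probes higher and lower were 5.11% and 5.53%, 6.91% and 8.13%, and 13.5% and 11.8%. Ddr2, a receptor tyrosine kinase for fibrillar collagen, was higher in SOD1-G93A glia than in SOD1-WT glia (0.80, adjusted p = 0.000844) and lower in SOD1-WT than in nontransgenic glia (-0.96, adjusted p = 9.68e-05). Both passed with the constant of 50, at 0.40 and -0.49. Itga11, the integrin chain that binds type I collagen, was lower in both SOD1-G93A (-0.84, adjusted p = 0.000689) and SOD1-WT glia (-0.90, adjusted p = 0.000131) than in nontransgenic glia. Ddr1, the related kinase of epithelial and glial cells, was 0.49 higher in SOD1-G93A glia than in nontransgenic glia (adjusted p = 0.0348), a call lost with scaling by medians (0.44, adjusted p = 0.101), with no filter (adjusted p = 0.111) and without nontransgenic replicates 2 (0.41) or 3 (0.39) or SOD1-G93A replicates 1 (0.43), 2 (0.51) or 3 (0.54), at adjusted p-values of 0.0578 to 0.151. Lair1, an inhibitory receptor of immune cells, was 0.60 higher in SOD1-WT than in nontransgenic glia (adjusted p = 0.0199), and this call was lost with no filter (adjusted p = 0.095) and without nontransgenic replicate 1 (0.35, adjusted p = 0.068) or SOD1-WT replicates 1 (0.55, adjusted p = 0.067) or 2 (0.59, adjusted p = 0.0536).

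Astrocyte markers, in contrast to meningeal markers, were brightest in SOD1-WT glia when summed. Bright genes such as Gja1, Aldoc and Slc1a3 (means of 12.88, 12.60 and 12.50 there) weigh heavily in this sum. Of 11 genes 10 were kept, with 2 higher and 3 lower in SOD1-G93A glia than in nontransgenic glia (5.11% and 5.53% of all kept probes). In SOD1-G93A against SOD1-WT glia 1 was higher, 0 were lower and 9 did not pass (6.91% higher and 8.13% lower of all kept probes). In SOD1-WT against nontransgenic glia 5 were higher and 2 lower (13.5% and 11.8% of all kept probes). The summed signal of the 10 genes was 24760 to 26470 in SOD1-G93A cultures, 27160 to 29420 in SOD1-WT cultures and 21990 to 23660 units in nontransgenic cultures. The 3 lower genes against nontransgenic glia became 1 without nontransgenic replicates 1 or 2 or SOD1-G93A replicates 1 or 3, the 2 lower in SOD1-WT glia became 1 without nontransgenic replicate 1, and the 1 higher gene against SOD1-WT glia became 0 without nontransgenic replicate 2, any 1 SOD1-G93A replicate or SOD1-WT replicate 3. The collagen genes that were higher in both transgenic groups than in nontransgenic glia (Col4a4 by 1 of its probes, Col9a1 and Col15a1) shared this direction with markers of more than 1 cell type. Gfap was 0.76 higher in SOD1-G93A (adjusted p = 0.00441) and 0.98 higher in SOD1-WT glia (adjusted p = 0.000231). The choroid plexus markers Otx2, a transcription factor, and Folr1, a folate receptor, were higher by 1.63 (adjusted p = 8.69e-06) and 1.44 (adjusted p = 4.63e-06) in SOD1-G93A glia and by 1.91 (adjusted p = 4.86e-07) and 2.47 (adjusted p = 6.09e-09) in SOD1-WT glia. The astrocyte gap junction gene Gjb6 had the opposite direction, at -1.45 in SOD1-G93A (adjusted p = 2.88e-06) and -1.59 in SOD1-WT glia (adjusted p = 2.75e-07). So did the choroid plexus markers Aqp1 (-1.27 and -2.02, with -1.88 and -4.45 by a second probe) and Clic6 (-0.54 and -0.44), and all these differences passed. Ttr, of the same list, was higher by 2.93 in SOD1-G93A glia (adjusted p = 0.00206), a call lost under the alternative variance model (adjusted p = 0.057). It differed by 0.09 in SOD1-WT glia and did not pass (adjusted p = 0.93). The leptomeningeal, endothelial, mural, astrocyte and choroid plexus genes given by name were chosen after their values were seen, and their part in the collagen values was not tested.

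In SOD1-G93A against nontransgenic glia, 1 of 7 kept microglia markers was higher and 1 lower, 2 of 9 oligodendrocyte lineage markers were higher and 2 lower, 0 of 5 neuron markers passed, and 3 of 5 choroid plexus markers were higher and 2 lower. In SOD1-G93A against SOD1-WT glia, 1 microglia marker was lower, 2 oligodendrocyte lineage markers were higher, 0 neuron markers passed, and 2 choroid plexus markers were higher and 1 lower. In SOD1-WT against nontransgenic glia, 1 microglia marker was higher, 1 oligodendrocyte lineage marker was higher and 2 lower, 2 neuron markers were lower, and 2 choroid plexus markers were higher and 2 lower. In the same order of comparisons, the shares of all kept probes higher and lower were 5.11% and 5.53%, 6.91% and 8.13%, and 13.5% and 11.8%. With so few markers, a count of 1 or 2 shows nothing particular to a list. Leaving out 1 array moved each of the marker counts by at most 1. For microglia in SOD1-G93A against nontransgenic glia, the higher count was 0 without nontransgenic replicates 1 or 2 or SOD1-G93A replicates 2 or 3, and the lower count was 0 without nontransgenic replicate 3 or SOD1-G93A replicates 1 or 3 and 2 without nontransgenic replicate 1. Against SOD1-WT glia the lower count was 0 without SOD1-G93A replicates 1 or 2 or SOD1-WT replicate 2, and 2 without nontransgenic replicates 1 or 3 or SOD1-WT replicate 3. In SOD1-WT against nontransgenic glia, leaving out nontransgenic replicate 1 gave 1 lower microglia marker, and leaving out nontransgenic replicate 3 gave 2 higher oligodendrocyte lineage markers. Of the oligodendrocyte lineage, 1 marker in place of 2 was lower than in nontransgenic glia without nontransgenic replicate 2 (both transgenic groups) or SOD1-WT replicate 1 (SOD1-WT glia). Of the neuron markers, 1 in place of 2 was lower in SOD1-WT glia without nontransgenic replicates 2 or 3 or SOD1-WT replicates 1 or 3, and 1 in place of 0 was lower in SOD1-G93A glia without nontransgenic replicate 3 or SOD1-WT replicate 3. Between SOD1-G93A and SOD1-WT glia, leaving out SOD1-WT replicate 3 gave 2 lower choroid plexus markers and 1 lower oligodendrocyte lineage marker.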

How the data were processed

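Biotin-labelled RNA of 9 glial cultures was read on Illumina mouse bead arrays, per the labels' protocols. Per the file headers, the deposited raw values are bead intensity means with their standard errors, bead counts and detection p-values of 24613 probes. BeadStudio (version not stated) was used, per the submitters' processing notes. The deposited intensity values are neither background-subtracted nor scaled, as judged from the values. The other deposited table holds intensity values by the authors that are a straight line of each raw column (largest residual 0.00905) with a common mean of 204.3, medians of 10.9 to 12.7 and 21.8% to 23.4% of values below 0. It was used as an alternative, with 22.35 added before log2.

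Raw intensities were normalised with neqc of limma 3.58.1 (R 4.3.3, with data.table in version 1.17.8), with background taken from negative controls inferred from detection p-values, an offset of 16, quantile scaling and log2. All 9 arrays entered 1 fit of 3 groups (6 residual and 7.52 prior degrees of freedom), with two-sided moderated tests and Benjamini-Hochberg adjustment over 13972 kept probes. The mean number of beads per probe was 34.8 to 35.7 per array, and the number of arrays limits the precision. Gene symbols came from the platform annotation (20984 probes with 1 symbol, 1 with several, 3628 with none), with 0 collagen symbols updated by the RefSeq gene table of GRCm38.p6, which also gave chromosomes. Each probe was its own feature for collagens, and a list gene was represented by whichever of its kept probes had the highest average. Where a probe was not above background on any array of a group, the fold is a bound against, per array, the higher of its own level and the lowest detected level. Members and lists were chosen with earlier results of these data known. All collagen genes were named, with values in every culture for those passing in at least 1 comparison, and from each of the 4 collagen-related lists the 4 genes with the smallest adjusted p. In a simulated data set with 200 of 13972 probes carrying a log2 shift of 1, the share recovered was 95% for SOD1-G93A against nontransgenic glia, 93.5% for SOD1-G93A against SOD1-WT glia and 95.5% for SOD1-WT against nontransgenic glia. With a shift of 0.5 it was 48.5%, 37.5% and 28%, with 0 of the wrong sign. Unshifted probes called numbered 10, 17 and 8 with the shift of 1, and 8, 1 and 1 with that of 0.5. In the data 1487, 2102 and 3539 probes passed, many more than the 200 shifted, so these shares do not describe recovery in the data. Alternatives covered background, offset, scaling, filter, array weights, variance model, the fit's groups, the values normalised by the authors, a replicate block and leaving out each array. Figures were drawn with matplotlib 3.10.9 in Python 3.11.15.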

Additional observations from a re-analysis of the deposited data

How the results depend on the processing

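Of 36 collagen differences that passed, 28 kept the call and direction under all 21 alternatives they could be computed for, 8 lost the call under at least 1, and 0 reversed. Of 48 that did not pass, 7 passed under at least 1 alternative: Col26a1 in SOD1-G93A against nontransgenic glia, Col5a1 and Col26a1 in SOD1-G93A against SOD1-WT glia, and Col4a1, Col5a1, Col14a1 and Col16a1 in SOD1-WT against nontransgenic glia. Array weights alone gave this for Col4a1 (-0.26, adjusted p = 0.0493). Collagen probes higher in SOD1-G93A glia than in nontransgenic glia numbered 3 to 5 when single arrays were left out. Those higher in SOD1-WT than in nontransgenic glia numbered 3 to 5 in the same way, 3 with no filter and 3 with array weights. The other counts of collagen probes stayed within 1.5 times. Of the collagen differences, and of those of the list genes named, signs turned only where the difference did not pass. With single arrays left out, SOD1-G93A against nontransgenic glia gave -0.13 to 0.0009 for Col3a1 (ILMN_1258629), -0.0871 to 0.0818 for Col10a1 (0.004 with the authors' values), -0.0146 to 0.20 for Col4a4 (ILMN_2679868), -0.0153 to 0.12 for Col5a1, -0.13 to 0.031 for Loxl2, -0.065 to 0.33 for Pcolce2, -0.0032 to 0.27 for Mmp13 and -0.0909 to 0.0281 for Notch3 (0.0045 with the authors' values, 0.0178 with array weights). SOD1-G93A against SOD1-WT glia gave -0.16 to 0.0128 for Col14a1, -0.13 to 0.0286 for Col16a1, -0.0209 to 0.17 for Col28a1, -0.0481 to 0.18 for Col4a4 (ILMN_2679868), -0.17 to 0.014 for Col4a6 (0.0055 with array weights), -0.0197 to 0.24 for Col8a1, -0.044 to 0.25 for Col9a1, -0.0346 to 0.0893 for Col9a3, -0.0195 to 0.13 for Itga11, -0.25 to 0.019 for S100b and -0.113 to 0.30 for Anpep. SOD1-WT against nontransgenic glia gave -0.0814 to 0.11 for Col28a1 (-0.0026 with array weights), -0.0612 to 0.0969 for Col4a4 (ILMN_2679868; -0.0583 with array weights), -0.0377 to 0.12 for Col4a5 (-0.0109 with array weights) and -0.13 to 0.17 for Col26a1 (0.0084 with the authors' values, 0.0143 with scaling by medians). The cause was not tested. Counts over the lists, tried after the data were seen, moved by over 1.5 times, or to or from 0, in 126 cases. In all other cases they stayed within 1.5 times. Replicate numbers were not taken as a pairing: the correlations of same-numbered arrays' deviations were -0.02 to 0.15, and not every pair was above 0.1. With the replicate number as a block, 12 collagen probes were higher in SOD1-G93A glia than in SOD1-WT glia (11 without it), and the other 5 counts were those without the block. A slide block was not run, since no slide is given here.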
